A study of Mus musculus with 24 samples.

Results

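Neuromesodermal progenitors that carried 1 deleted copy of Smchd1 were compared with wild-type progenitors on day 3 of differentiation, the last day sampled in this cross. The 6 libraries concerned, 3 het and 3 wt, were those whose label gave day 3, among 24 libraries of a time course that also sampled the same lines on day 0, day 2 and day 2.5. Every gene of the count table entered the comparison, of which 15686 of 35591 passed the filter on low counts and were tested.

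The wt lines had the genotype Smchd1[fl/+] and the het lines Smchd1[del/+], all male primary embryonic stem cell lines (mESCs). They came from a cross of a Castaneus Smchd1+/+ female with a C57BL/6 Smchd1 del/fl male carrying an MMTV-Cre transgene. The deletion in the het lines was therefore inherited from the father, and every line came from an oocyte with wild-type SMCHD1. Each line was derived from a separate blastocyst, so n = 3 lines per genotype, and a line is 1 derivation. The mESCs were placed in N2B27 medium with bFGF from day 0, the Wnt pathway activator CHIR99021 was added from day 2, and the cells were collected on day 3 before any GDF11 was given.

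SMCHD1 is a chromatin protein related to the structural maintenance of chromosomes (SMC) family, known for its part in X chromosome inactivation, in genomic imprinting and in the silencing of clustered gene families such as the Hox genes and the clustered protocadherins. Neuromesodermal progenitors (NMPs) are the cells of the caudal epiblast that give rise to both spinal cord and paraxial mesoderm of the trunk. They are recognised by joint expression of T (Brachyury) and Sox2, and under Wnt and FGF signalling they switch on the Hox genes from the anterior end of each cluster onwards.

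The libraries held 16041475 to 20818018 counts. An approximate upper limit for a count of 0, from counting error only, was set at 3 counts. This corresponded to 0.142 to 0.189 CPM, the count scaled by library size to a common total. Values below are CPM after TMM scaling, given for wt lines 1, 2 and 3 and then het lines 1, 2 and 3, and fold changes are log2 values of het minus wt. The libraries correlated with each other at r = 0.975 to 0.991 and none repeated another. The library of wt line 2 stood apart on the first principal component, which carried 36.7% of the variance, at 40.1 against -24.8 to 12.5 for the other 5. In wt line 1 the 684 tested genes of chromosome 8 lay at a median of 0.19 log2 units above the other 5 libraries, and over all lines the chromosome's median fold change was -0.07. Of the genes named below, Acta1, Tpm4, Plat, Col4a1, Dkk4, Cdh1, Cdh5, Sox1 and Tubb3 lie on it, and the part of this shift in their values was not tested except where a value without wt line 1 is given.

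The targeted gene was measured first. Smchd1 (ENSMUSG00000024054, chromosome 17, 71344489 to 71475343, minus strand, GRCm38) had 171, 216 and 213 CPM in the wt lines and 109, 110 and 107 CPM in the het lines. The het lines were closely alike and all lay below every wt line, with means of 200 ± 25.1 in wt and 109 ± 1.43 in het (SD, n = 3), so that het lines held 54.3% of the wt level. Its log2 fold change was -0.88 (SE 0.098), with an adjusted p of 0.0307 in edgeR's quasi-likelihood test with Benjamini-Hochberg adjustment over all genes tested. An exact two-sided permutation test of 3 against 3 lines gave p = 0.1, the smallest that this design allows.

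The Smchd1 call depended on the lines included. In edgeR's quasi-likelihood test its adjusted p was 0.191 without wt line 2, 0.19 without wt line 3, 0.133 without het line 1 and 0.444 without het line 3, and over all alternatives it ranged from 5.9e-11 to 0.444. Its fold change stayed between -0.98 and -0.83 throughout. In the same lines the fold change on the earlier days was -0.61 (SE 0.083) on day 0, -0.75 (SE 0.094) on day 2 and -0.60 (SE 0.11) on day 2.5. In edgeR's quasi-likelihood test with the line as a block, day 3 differed from day 0 by -0.29 (SE 0.11, unadjusted p = 0.0193, adjusted p = 0.379), from day 2 by -0.14 (SE 0.12, unadjusted p = 0.232) and from day 2.5 by -0.28 (SE 0.12, unadjusted p = 0.038, adjusted p = 0.853).

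Smchd1 was the 1 gene that passed an adjusted p of 0.05 in edgeR's quasi-likelihood test, which is 0.00638% of those tested, and the next smallest adjusted p was 0.221. At an unadjusted p under 0.05 there were 783 genes higher in het (4.99% of those tested) and 649 lower (4.14%). Without regard to p, each het line exceeded each wt line for 1265 genes (8.06%) and fell short of each for 920 (5.87%). These shares are the background for counts from this fit of 6 lines. The median log2 fold change over all genes was -0.0005, and its quartiles were -0.14 and 0.15.

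The number of genes called differed widely between tests. DESeq2's Wald test called 116 genes on the same counts (0.74%), 72 higher and 44 lower, and edgeR's exact test called 135 (0.861%), 88 higher and 47 lower. They shared 103 genes, 68 higher and 35 lower, which were 88.8% of the DESeq2 calls and 76.3% of the exact test's calls. With limma voom the count was 1, Smchd1, and with no filter beyond 1 count edgeR's quasi-likelihood test called 274, 129 of them higher and the rest lower. Leaving out 1 line gave, in edgeR's quasi-likelihood test, 93 calls without wt line 1 (26 higher and 67 lower, so that most were lower), 0 without wt line 2, 1 without wt line 3 (Pim2), 1 without het line 1 (the agouti gene a), 5 without het line 2 (Smchd1, Tagln, Gm48529, Perp and Ceacam15) and 0 without het line 3. In what follows, a gene other than Smchd1 is therefore described by its values, its unadjusted p, and whether the other tests called it.

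**Figure D1:**
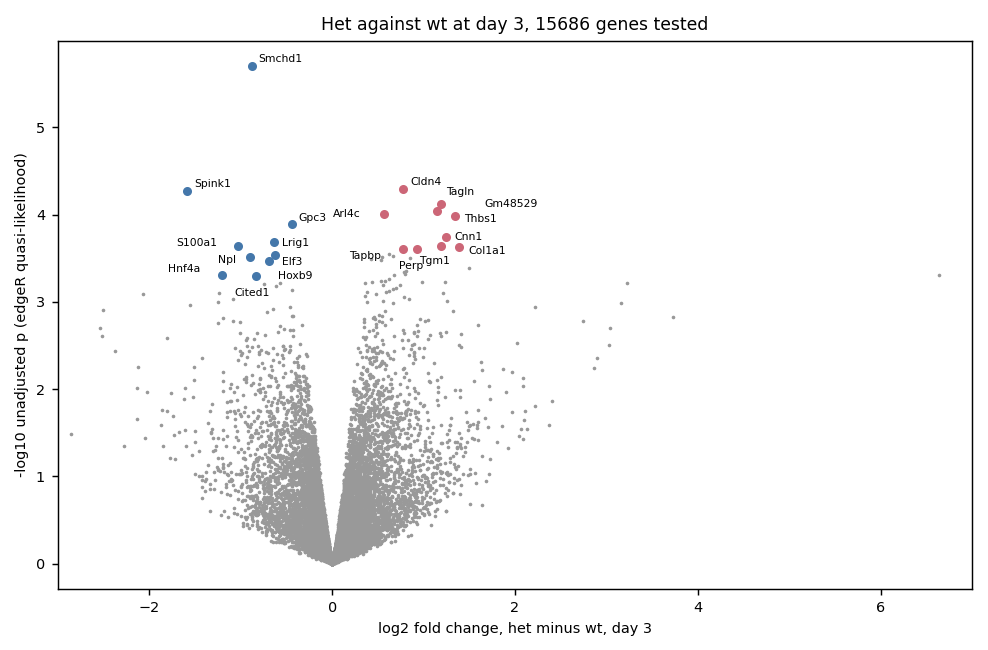
Each point is 1 of the 15686 genes tested at day 3, with the log2 fold change of het minus wt on the x axis and the negative log10 of the unadjusted p on the y axis (edgeR quasi-likelihood test, n = 3 lines per genotype). Red and blue points are the 20 genes named by rule (10 higher and 10 lower in het, Smchd1 among the latter); Smchd1 stands above the rest and is the 1 gene past an adjusted p of 0.05.

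The genes named by rule were the 10 higher and the 10 lower genes with the smallest unadjusted p, among those whose groups did not overlap and whose mean count reached 50 in a group. All 20, Smchd1 included, were called by DESeq2's Wald test and by edgeR's exact test. Apart from Smchd1 each had an adjusted p of 0.221 or 0.229 in edgeR's quasi-likelihood test. Because the rule used these values, the non-overlap of the lines is a description of the choice. The calls of DESeq2 and the exact test rest on the same counts and are no separate support.

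Several of the 10 higher genes encode proteins of the contractile cytoskeleton and of the matrix. Tagln (transgelin, an actin-binding protein of smooth muscle) had 61.2, 66.6 and 45.6 CPM in wt and 152, 90.03 and 154 CPM in het, a log2 fold change of 1.19 (SE 0.20, unadjusted p = 7.5e-05). Cnn1 (calponin, another actin-binding protein of smooth muscle) had 14.7, 10.2 and 7.16 CPM in wt and 25.2, 22.7 and 28.4 CPM in het, at 1.24 (SE 0.23). Thbs1 (thrombospondin, a secreted matrix glycoprotein) had 6.46, 9.82 and 8.47 CPM in wt and 18.6, 16.3 and 27.5 CPM in het, at 1.34 (SE 0.23). For Tagln het line 2 was the lowest of the het lines, and the other 2 were close to each other. Tagln lies on chromosome 9 (45929619 to 45936058, minus strand), and the antisense gene Gm48529, also among the 10 at 1.147 (SE 0.19), shares 1241 exon bases with it on the opposite strand. Since it is not stated that reads were counted by strand, reads of these 2 genes cannot be told apart and they are best read as 1 signal.

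The other higher genes included products of epithelia. Cldn4 (claudin 4, a tight junction protein) had 55.2, 43.2 and 54.1 CPM in wt and 85.4, 77.6 and 97.8 CPM in het, at 0.77 (SE 0.12). Tgm1 (a transglutaminase of the epidermal barrier) had 4.76, 5.79 and 5.21 CPM in wt and 13.2, 8.76 and 13.9 CPM in het, at 1.19 (SE 0.22). Perp, a desmosomal p53 target, was at 0.93 (SE 0.18). Col1a1 (type I collagen) had 3.26, 3.09 and 3.39 CPM in wt and 8.92, 5.89 and 10.7 CPM in het, at 1.39 (SE 0.26), the largest fold change of the 10. Tapbp, which loads peptides on class I molecules, and Arl4c, a small GTPase of the ARF family, lay at 0.77 (SE 0.15) and 0.56 (SE 0.096). The wt lines were tightly grouped for Col1a1 and Tgm1, whereas for both genes het line 2 lay between the wt lines and the other het lines.

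Spink1 (a secreted trypsin inhibitor) had the largest negative fold change of the 20. Its levels were 27.2, 45.7 and 45.4 CPM in wt and 8.34, 15.9 and 14.9 CPM in het, at -1.59 (SE 0.25). Npl (N-acetylneuraminate pyruvate lyase) had 119, 155 and 117 CPM in wt and 49.9, 84.0 and 76.2 CPM in het, at -0.90 (SE 0.17). S100a1, a calcium-binding protein, had 20.3, 25.3 and 24.5 CPM in wt and 8.34, 13.9 and 11.99 CPM in het, at -1.03 (SE 0.19). For all 3 genes het line 1 was the lowest of the 6 lines.

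The remaining lower genes included several regulators. Hnf4a (a nuclear receptor of endoderm and liver) had 6.18, 7.18 and 8.47 CPM in wt and 2.66, 3.798 and 3.00 CPM in het, at -1.20 (SE 0.25). Cited1 (a transcriptional co-activator) had 77.1, 128 and 120 CPM in wt and 55.2, 56.0 and 71.1 CPM in het, at -0.83 (SE 0.17). Gpc3 (glypican 3, a cell surface proteoglycan) had 168, 183 and 174 CPM in wt and 132, 126 and 128 CPM in het, at -0.44 (SE 0.078), with little spread in either group. Lrig1, a feedback inhibitor of ErbB receptors, lay at -0.63 (SE 0.12) and Elf3, an epithelial ETS factor, at -0.62 (SE 0.12). Hoxb9 was also among the 10 and is described with the Hox genes.

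RNA of the NMP markers was read first among the gene lists. Values per length are means of the log2 RPKM that the authors deposited. T had 6.34 in wt and 6.74 in het, Nkx1-2 5.01 and 5.11, Cdx2 5.73 and 5.68, and Sox2 4.13 and 4.43. RNA of these markers was thus present in both groups. The pluripotency genes Pou5f1 (6.65 and 7.02) and Nanog (4.13 and 4.72) were present too. Bulk RNA cannot show whether T and Sox2 were expressed in the same cells, so NMP identity was not tested. T had 245, 190 and 164 CPM in wt and 365, 177 and 257 CPM in het, at 0.42 (SE 0.22, unadjusted p = 0.0819), and the groups overlapped because het line 2 lay among the wt lines. Over all alternatives the fold change of T ran from 0.124 to 0.638. Of 18 tested members of the NMP and caudal epiblast list, 1 was higher at an unadjusted p under 0.05 (Wnt8a, 0.38) and 1 lower (Cyp26a1), with a median of 0.09 whose sign was not kept when lines were left out (-0.24 to 0.22). In turn the higher count was 4, 0, 1, 1, 4 and 1 and the lower 1, 1, 2, 5, 1 and 1. Cyp26a1, which degrades retinoic acid in the tail bud, had 27.8, 38.5 and 46.1 CPM in wt and 18.4, 22.4 and 26.5 CPM in het, at -0.74 (SE 0.19, unadjusted p = 0.00242), every het line below every wt line. DESeq2 and the exact test both called Cyp26a1.

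The other markers that define NMPs overlapped between the genotypes. Sox2 lay at 0.27 (SE 0.15, unadjusted p = 0.0931), Nkx1-2 at 0.15 (SE 0.25), Cdx2 at -0.09 (SE 0.15), Fgf8 at 0.04 (SE 0.23) and Wnt3a at -0.03 (SE 0.33). Cdx1 and Cdx4 had -0.32 (SE 0.26) and -0.43 (SE 0.23). For T, Nkx1-2, Fgf8 and Wnt3a het line 1 was the highest of the 6 lines and het line 2 the lowest or the next to lowest, so the het lines spanned a wider range than the wt lines.

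Among 39 gene lists, list medians ran from -0.67 for endoderm to 0.57 for lateral mesoderm and heart, and in 38 lists no member was called by edgeR's quasi-likelihood test, the exception being the SMC list through Smchd1. The lists below are therefore described by counts at an unadjusted p under 0.05, to be read against 4.99% higher and 4.14% lower among all genes. Where 6 counts are given in turn, they are those without wt lines 1, 2 and 3 and then without het lines 1, 2 and 3. These fits have backgrounds of their own, with 7.85%, 3.59%, 4.16%, 3.75%, 4.48% and 2.88% of all genes higher in turn and 7.58%, 2.60%, 3.30%, 2.63%, 4.32% and 2.69% lower. Without wt line 1 the counts over all genes were thus 1260 higher and 1217 lower, against 783 and 649 with all lines.

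**Figure D2:**
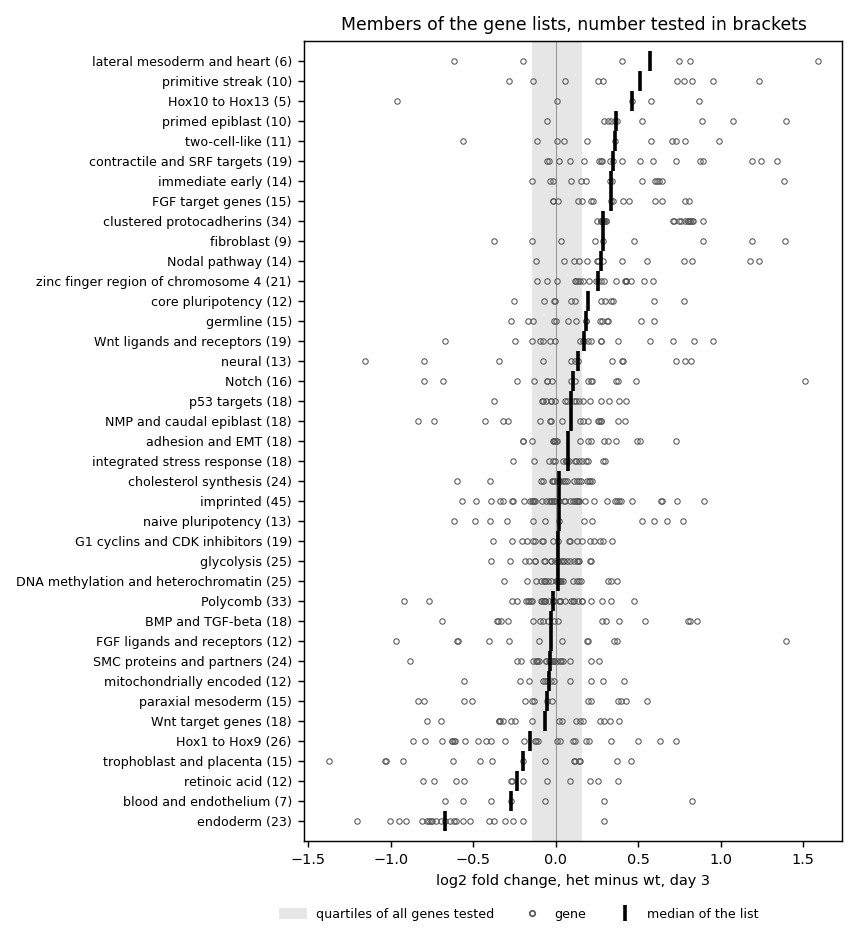
Log2 fold change of het minus wt at day 3 on the x axis for the tested members of each list (open circles, 1 gene each) with the median of the list (bar); the grey band runs from the lower to the upper quartile of all genes tested, -0.14 to 0.15. Endoderm lies farthest to the left at -0.67, and lateral mesoderm and heart, primitive streak and Hox10 to Hox13 lie farthest to the right at 0.57, 0.51 and 0.46, with several more lists to the right of the band.

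Contractile genes and targets of serum response factor (SRF) had a higher mean in het in 17 of 19 cases. SRF binds the CArG box in genes of the actin cytoskeleton, together with co-activators that respond to actin state. Of 20 listed genes 19 were tested, 12 were higher at an unadjusted p under 0.05 and 0 lower, and in 10 the groups were separate, with het the higher. The median was 0.35, against -0.0005 for all genes, and kept between 0.34 and 0.44 over all alternatives, with 10 to 13 members higher (11 without wt line 2, the library that stood apart). DESeq2's Wald test called 6 of them and the exact test 5, all 5 in common: Ccn1, Cnn1, Tagln, Thbs1 and Tpm1.

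The promoters of 3 members whose het lines all lay above the wt lines are shown because these genes hold a CArG box (in capitals) near their start site. The motif is CC, a run of A or T bases, then GG. This pattern can be found from either strand, though a single box need not read the same on both. Each run covers 250 bases before to 50 bases after the annotated start of the gene, 5′ to 3′ on the gene's strand, from RefSeq on GRCm38.p6. Srf lies at chr17:46556113-46556412 on the minus strand, Acta1 at chr8:123894726-123895025 on the minus strand and Cnn2 at chr10:79988350-79988649 on the plus strand.
Srf: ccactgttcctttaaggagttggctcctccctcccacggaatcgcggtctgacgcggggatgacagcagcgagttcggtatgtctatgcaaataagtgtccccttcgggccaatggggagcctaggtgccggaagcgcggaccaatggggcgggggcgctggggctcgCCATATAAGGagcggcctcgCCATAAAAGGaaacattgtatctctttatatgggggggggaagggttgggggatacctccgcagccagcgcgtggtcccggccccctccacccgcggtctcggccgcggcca
Acta1: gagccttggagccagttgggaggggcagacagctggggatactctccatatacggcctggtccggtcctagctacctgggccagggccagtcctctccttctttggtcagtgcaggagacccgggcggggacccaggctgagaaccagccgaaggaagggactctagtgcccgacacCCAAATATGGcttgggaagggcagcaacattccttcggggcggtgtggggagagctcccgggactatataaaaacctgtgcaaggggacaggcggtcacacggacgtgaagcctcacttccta
Cnn2: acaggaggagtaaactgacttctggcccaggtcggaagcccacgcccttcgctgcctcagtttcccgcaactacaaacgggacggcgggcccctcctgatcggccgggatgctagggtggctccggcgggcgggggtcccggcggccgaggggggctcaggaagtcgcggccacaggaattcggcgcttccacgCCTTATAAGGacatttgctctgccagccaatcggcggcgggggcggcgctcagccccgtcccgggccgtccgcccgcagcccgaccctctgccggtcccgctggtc

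The Srf promoter held 2 boxes, beginning at -82 and -62 relative to the start site, that of Acta1 began at -73 and that of Cnn2 at -56. Of the 20 listed genes 16 had a promoter entry, and 6 of those genes held a CArG box in this window (Vcl, Myl9 and Actc1 besides the 3 shown). Among all 32817 promoters of the same length 1.63% held one. Of the 5 genes called by both tests, Cnn1, Tpm1 and Ccn1 held no box in this window, and Tagln and Thbs1 were not examined. The list was drawn up from known targets of this factor, so the share among its members is a description of the list.

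Srf itself had 43.2, 36.6 and 35.5 CPM in wt and 49.6, 50.2 and 52.6 CPM in het, at 0.40 (SE 0.11, unadjusted p = 0.00327), and the het lines lay within a narrow range above wt. Acta1 (skeletal muscle actin) had 7.78, 8.75 and 5.08 CPM in wt and 14.03, 10.5 and 15.2 CPM in het, at 0.87 (SE 0.23). Cnn2, a calponin of non-muscle cells, had 109, 98.7 and 90.3 CPM in wt and 125, 114 and 135 CPM in het, at 0.33 (SE 0.099). The fold changes of these 3 genes were not compared by a test, and those of Srf and Cnn2 were close for their SE.

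Tpm1 (tropomyosin, which lies along the actin filament) had 490, 459 and 426 CPM in wt and 750, 523 and 683 CPM in het, at 0.51 (SE 0.12). Ccn1, a matrix protein and target of both SRF and YAP (listed under its older name Cyr61), had 50.7, 57.8 and 66.9 CPM in wt and 81.8, 79.2 and 103 CPM in het, at 0.59 (SE 0.13). Vcl (vinculin), which anchors actin at adhesions, was at 174 CPM in each wt line and at 194, 187 and 208 CPM in het, at 0.17 (SE 0.077, unadjusted p = 0.0446). Acta2 (smooth muscle actin, 0.89, SE 0.25) and Flna (filamin A, 0.35, SE 0.11) also had an unadjusted p under 0.05, but het line 2 lay within the wt range for both. The members without such a p included Actc1 at 0.73 (SE 0.34, unadjusted p = 0.0584), Ccn2 at 0.28 (SE 0.17), Actn1 at 0.09, Myl9 at 0.02, Lmna at -0.04 and Tpm4 at -0.05.

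Summed over the list, the contractile genes held 2682, 2577 and 2401 CPM in wt and 3344, 2768 and 3301 CPM in het, with het line 2 closest to the wt lines. Markers of fibroblasts, which also express several of these genes, were checked beside them. Of 9 tested members of the fibroblast list 3 were higher at an unadjusted p under 0.05 and 0 lower (Col1a1, Tagln and Acta2, the latter 2 also on the contractile list), and its summed level was 92.4 to 130 CPM in wt and 149 to 254 CPM in het. Of its defining markers, Col1a2 was at 0.28 (SE 0.35, unadjusted p = 0.438), Thy1 at 0.24 and Dcn at -0.14, while Lum and Fap had 0 counts in every library but het line 1, with at most 5 there. The part of such cells in the contractile values was not tested.

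**Figure D3:**
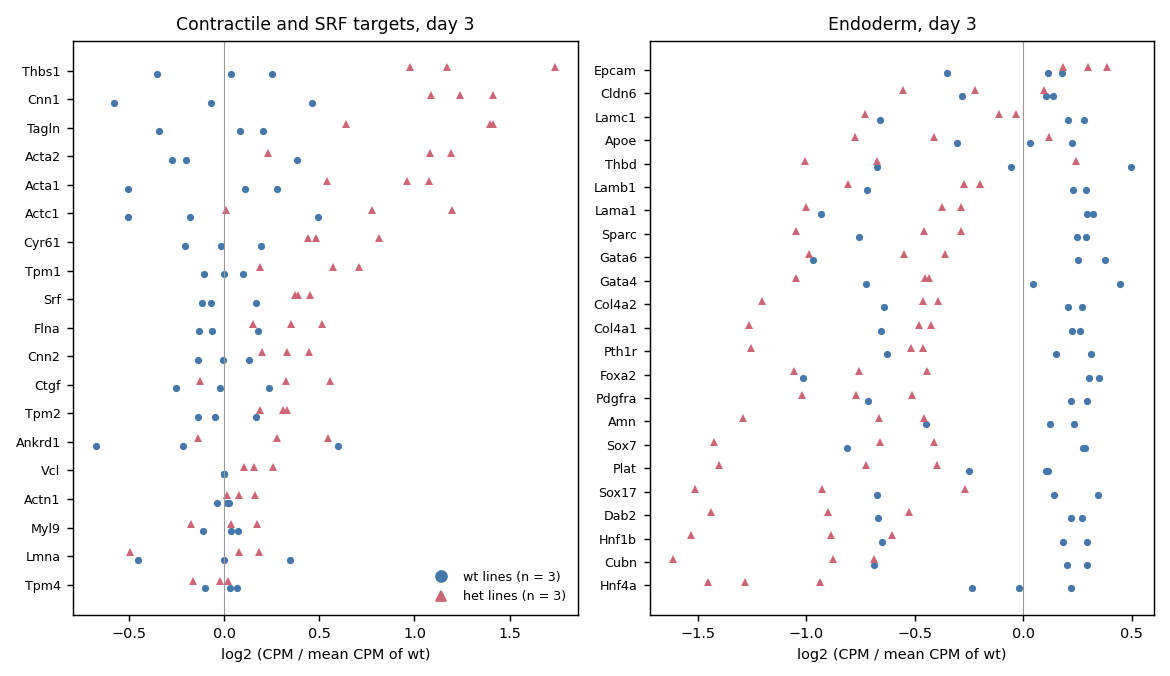
CPM of each line at day 3 as log2 of its ratio to the mean of the 3 wt lines, for the tested contractile genes and SRF targets (left) and the tested endoderm genes (right); circles are wt lines and triangles het lines, n = 3 each. For Thbs1, Cnn1 and Tagln the het lines lie to the right of every wt line, whereas for most endoderm genes 1 wt line lies among the het lines.

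Genes of endoderm had a lower mean in het in 22 of 23 cases, and the groups overlapped in most of them. Primitive and visceral endoderm are epithelia that line the early embryo, specified by GATA and SOX17 factors and rich in basement membrane and endocytic receptors. Of 27 listed genes 23 were tested, 15 were lower at an unadjusted p under 0.05 and 1 higher (Epcam, 0.29). The median was -0.67, but every het line lay below every wt line in only 4 genes, Hnf4a, Cubn, Plat and Amn. DESeq2 and the exact test called 3 members each, with Hnf4a in common.

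Cubn (cubilin, an endocytic receptor of visceral endoderm) had 308, 608 and 571 CPM in wt and 162, 270 and 308 CPM in het, at -1.01 (SE 0.26, unadjusted p = 0.00224), so wt line 1 and het line 3 were level. Sox17 had 22.5, 45.5 and 39.5 CPM in wt and 12.6, 18.8 and 29.8 CPM in het, at -0.81 (SE 0.30), with wt line 1 below het line 3. Col4a1 (type IV collagen of the basement membrane) lay at -0.67 (SE 0.24), Gata4 at -0.61 (SE 0.25), Foxa2 at -0.72 (SE 0.31) and Pdgfra at -0.75 (SE 0.22). Plat, the tissue plasminogen activator made by parietal endoderm, did not overlap, with 33.6, 43.4 and 43.1 CPM in wt and 15.2, 30.4 and 24.2 CPM in het, at -0.78 (SE 0.21).

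The endoderm values rested on the lines. Summed over the list they were 7057, 13190 and 13540 CPM in wt and 5533, 8813 and 8992 CPM in het, so wt line 1 lay within the range of the het lines and wt lines 2 and 3 above it. The count of 15 lower members became 20 without wt line 1, 8 without wt line 2, 7 without wt line 3 and 7 without het line 1, and it was 14 and 16 without het lines 2 and 3. The median stayed negative, from -0.91 to -0.45. Of the defining endoderm genes Afp had 3 counts in wt line 1 and 0 in the other 5 libraries. In these bulk samples fewer cells of a type and less RNA per cell cannot be told apart. Hnf4a belongs to this list, and whether other lower genes such as Spink1 and Npl share its source was not tested.

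Of the 14 tested members of the Nodal pathway, 13 had a higher mean in het and 5 an unadjusted p under 0.05. Nodal is a TGF-beta family ligand of the epiblast and streak, and the Lefty proteins are its secreted inhibitors and its targets. Lefty2 had 9.39, 5.29 and 11.2 CPM in wt and 25.1, 15.7 and 19.96 CPM in het, at 1.23 (SE 0.26, unadjusted p = 0.000598). Lefty1 had 16.5, 5.67 and 14.6 CPM in wt and 25.4, 32.6 and 25.4 CPM in het, at 1.18 (SE 0.30). Nodal had 10.3, 6.05 and 10.9 CPM in wt and 16.3, 17.2 and 15.0 CPM in het, at 0.83 (SE 0.22). For all 3 genes wt line 2 was the lowest of the 6 lines, and the genotypes did not overlap.

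No member of the pathway was lower at such a p (0 of 14), and the median was 0.27 (0.22 to 0.46 with a line left out). The others of the 5 were Foxh1, the transcription factor through which the pathway acts, at 0.56 (SE 0.17), and Tdgf1, the co-receptor Cripto, at 0.78 (SE 0.29). Tdgf1 had 57.8, 39.2 and 71.5 CPM in wt and 59.1, 147 and 82.5 CPM in het, so its groups overlapped with het line 2 far above the rest, and without that line its fold change was 0.33. Over the alternatives 4 to 7 members passed (4 without wt line 2). DESeq2 and the exact test both called Lefty1, Lefty2 and Nodal. The primitive streak list, which holds Lefty2 and Nodal too, had 4 of 10 members higher and 0 lower with a median of 0.51, among them Wnt3 at 0.95 (SE 0.26). That median was 0.14 without wt line 2 and 0.92 without wt line 3.

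Markers of primed epiblast had 7 of 10 members higher and 0 lower, with a median of 0.36. Pou3f1 (Oct6, a POU factor of epiblast and early neural plate) had 4.29, 4.66 and 8.29 CPM in wt and 9.23, 14.3 and 12.5 CPM in het, at 1.07 (SE 0.27). Zic2 had 26.1, 19.6 and 26.7 CPM in wt and 30.1, 39.4 and 34.5 CPM in het, at 0.52 (SE 0.15). The count of 7 became 3 without wt line 2 and 2 without het line 2, and 5 to 7 without another line. Core pluripotency genes had 3 of 12 higher and 0 lower (3, 1, 3, 6, 1 and 3 higher in turn), with a median of 0.20 (0.14 to 0.30 with a line left out) and Pou5f1 at 0.33 (SE 0.14), while naive pluripotency genes had 1 higher (Esrrb) and 1 lower (Tbx3) of 13 with a median of 0.02 (-0.22 to 0.20 with a line left out). The naive list had 3, 0, 2, 1, 0 and 0 higher in turn and 3, 0, 0, 0, 3 and 1 lower. Nanog had 46.8, 24.4 and 61.3 CPM in wt and 48.4, 89.4 and 52.3 CPM in het, at 0.52 (SE 0.30, unadjusted p = 0.105), so its groups overlapped.

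Targets of FGF signalling had a higher mean in het in 13 of 15 cases, and ligands and receptors in 6 of 12. The dual-specificity phosphatases and the Sprouty and Spred proteins are switched on by ERK and dampen it. Of 15 tested targets 7 were higher at an unadjusted p under 0.05, all 7 without overlap, and 0 lower, with a median of 0.33 (5 to 9 higher over the alternatives, 6 without wt line 2). Dusp5 had 9.20, 9.38 and 9.16 CPM in wt and 14.2, 15.8 and 18.4 CPM in het, at 0.81 (SE 0.16, unadjusted p = 0.000437). Dusp6 had 162, 175 and 140 CPM in wt and 229, 189 and 232 CPM in het, at 0.45 (SE 0.11). These 2 were the members that both DESeq2 and the exact test called, and Dusp5 was almost the same in all 3 wt lines.

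Spred1 lay at 0.34 (SE 0.086), Il17rd at 0.33 (SE 0.097), Etv1 at 0.78 (SE 0.27) and Spry1 at 0.41 (SE 0.16). Among FGF ligands and receptors 1 of 12 was higher (Fgf5, 1.40, SE 0.62, at most 1.95 CPM in any line) and 2 lower, with a median of -0.03 (-0.14 to 0.11 with a line left out). In turn 4, 0, 0, 1, 0 and 0 of these were higher and 2, 1, 1, 3, 1 and 2 lower. Fgf3 had 8.26, 8.75 and 6.34 CPM in wt and 5.32, 2.34 and 4.32 CPM in het, at -0.97 (SE 0.30), and Fgfr2 lay at -0.40 (SE 0.16). The immediate early genes, which overlap with targets of both ERK and SRF, had 4 of 14 higher and 0 lower with a median of 0.33, Egr1 among them at 0.60 (SE 0.27), and 3, 4, 2, 3, 2 and 1 higher in turn.

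For the Wnt pathway, which CHIR99021 activates below the receptor, 4 of 19 ligands and receptors were higher (Wnt3, Wnt8a, Fzd2 and Rspo1) and 1 lower (Wnt11) with a median of 0.17, and 2 of 18 targets were higher (Lgr4 and Ccnd1) and 1 lower (Dkk4) with a median of -0.06. The higher counts in turn were 6, 1, 2, 1, 5 and 3 for ligands and receptors and 5, 0, 2, 1, 1 and 2 for targets, the lower counts were 2, 0, 0, 1, 0 and 1 and 1, 1, 5, 2, 1 and 0, and their medians ran over 0.023 to 0.36 and -0.16 to 0.036. Axin2, a direct target and feedback inhibitor, had 112, 82.2 and 56.2 CPM in wt and 88.2, 58.7 and 64.0 CPM in het, at -0.25 (SE 0.22, unadjusted p = 0.274), and its groups overlapped. Dkk4, a secreted Wnt inhibitor, had 27.1, 17.1 and 12.9 CPM in wt and 8.03, 16.1 and 9.24 CPM in het, at -0.78 (SE 0.30). Its groups overlapped, and without wt line 1 it was at -0.43. Retinoic acid genes had 0 higher and 2 lower of 12 (Cyp26a1 and Aldh1a3, a retinoic acid synthase at -0.81, SE 0.29) with a median of -0.23 (-0.43 to -0.005 with a line left out, 2, 2, 4, 4, 3 and 1 lower in turn). Notch genes had 2 higher and 0 lower of 16 (Rbpj and Notch3, 5, 2, 2, 3, 3 and 2 higher in turn) with a median of 0.10 (0.031 to 0.27 with a line left out), and BMP and TGF-beta genes 1 higher (Bmp4) and 2 lower (Msx2 and Acvr1) of 18 with a median of -0.03 (-0.17 to 0.045 with a line left out, 2, 1, 2, 1, 1 and 0 higher in turn and 4, 0, 2, 2, 1 and 1 lower).

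The Hox genes are the family through which SMCHD1 was followed in these cells. Of the 26 tested genes of Hox groups 1 to 9, 2 were higher and 4 lower at an unadjusted p under 0.05, with a median of -0.16. Hoxb9 had 46.5, 43.6 and 37.3 CPM in wt and 29.4, 22.2 and 27.4 CPM in het, at -0.69 (SE 0.14, unadjusted p = 0.000338), every het line below every wt line. Hoxc4 had 9.29, 13.4 and 7.47 CPM in wt and 5.32, 4.14 and 7.11 CPM in het, at -0.86 (SE 0.27), also without overlap. The other lower ones were Hoxb4 at -0.79 (SE 0.29) and Hoxb7 at -0.61 (SE 0.26). DESeq2 and the exact test called 1 member each, Hoxb9.

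Hoxd9 was in the opposite direction, with 3.11, 2.71 and 2.76 CPM in wt and 4.75, 3.94 and 4.67 CPM in het, at 0.63 (SE 0.26, unadjusted p = 0.0307). At the anterior end Hoxb1 had 70.3, 41.6 and 36.2 CPM in wt and 73.1, 34.3 and 44.1 CPM in het, at 0.03 (SE 0.28), with line 1 of each genotype far above its 2 companions. Hoxc6 had 1.75, 4.09 and 3.70 CPM in wt and 3.18, 1.95 and 2.08 CPM in het, at -0.39 (SE 0.38), and overlapped.

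Along the HoxB cluster the fold changes were 0.03 for Hoxb1, -0.11 for Hoxb2, -0.42 for Hoxb3, -0.79 for Hoxb4, -0.63 for Hoxb5 and Hoxb6, -0.61 for Hoxb7, -0.47 for Hoxb8 and -0.69 for Hoxb9. Every gene from Hoxb2 on was thus lower in the mean of het, but groups overlapped in all but Hoxb9. Of groups 1 to 9, 4 of 5 tested HoxC genes were lower in the mean of het (from -0.86 for Hoxc4 to 0.34 for Hoxc8) and 2 of 5 tested HoxD genes (from -0.55 for Hoxd4 to 0.63 for Hoxd9). Per length, in log2 RPKM, Hoxb1 (4.28 in wt, 4.33 in het) and Hoxb9 (3.97 and 3.30) were the highest of the cluster, above Hoxb8 (2.44 and 2.00) and Hoxb2 (2.35 and 2.23). Of groups 10 to 13, 5 of 12 listed genes were tested, and 0 were higher and 1 lower (Hoxc13, -0.96, SE 0.35, without overlap). Their median was 0.46 (0.26 to 0.54 with a line left out).

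The direction of the Hox list as a whole was not stable. Its median ran from -0.56 without het line 1 to 0.02 without het line 2, and the 4 lower genes became 9 without wt line 3, 9 without het line 1, 2 without wt line 2 and 2 without het line 3, and 0 in a fit of all 24 libraries. The higher count was 2, 0, 1, 0, 2 and 1 in turn. Hoxb9 kept its sign in every alternative, from -0.78 to -0.59. On day 2.5 in the same lines its fold change was 0.18 (SE 0.25, unadjusted p = 0.474).

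**Figure D4:**
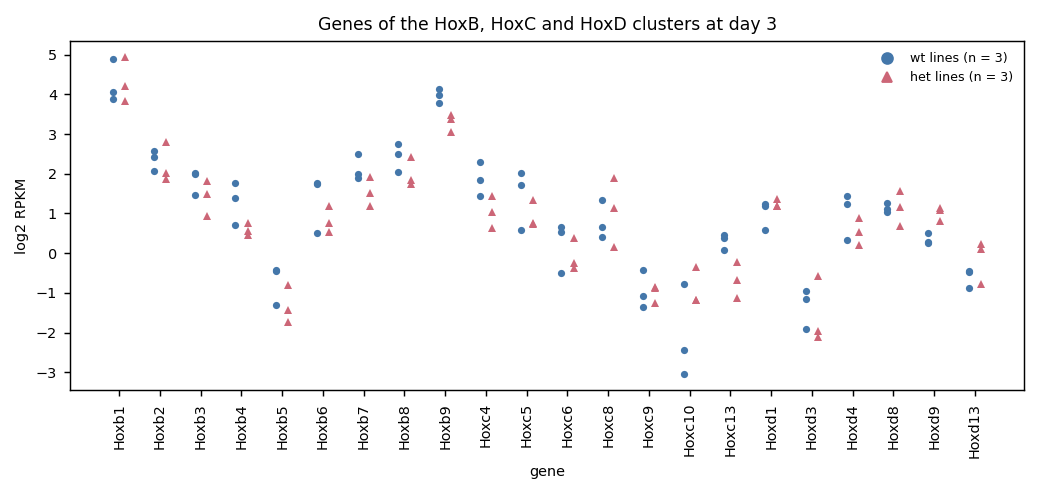
Deposited log2 RPKM at day 3 of HoxB, HoxC and HoxD genes on the y axis, in cluster order on the x axis; circles are the 3 wt lines and triangles the 3 het lines. Het and wt overlap for most genes. Hoxb9, Hoxc4 and Hoxc13 are lower in every het line and Hoxd9 is higher in every het line.

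Other gene families known to respond to SMCHD1 were read next. The clustered protocadherins encode cell surface proteins of neurons. Of 34 tested, 13 were higher at an unadjusted p under 0.05 and 0 lower, and the median was 0.29 (0.16 to 0.42 with a line left out). Pcdha12 had 3.96, 4.03 and 2.39 CPM in wt and 8.08, 5.02 and 6.25 CPM in het, at 0.89 (SE 0.29). All 13 belonged to the alpha array, whose 13 tested members lay at 0.71 to 0.89, whereas the 21 members of the gamma array lay at 0.25 to 0.30. The variable genes of the alpha array share their last exons, as do those of the gamma array (for Pcdha12, 53.6% of its exon bases lie in Pcdhac2 too), so that their counts hold the same reads and the members are not separate measurements. The count of 13 became 34 without wt line 1, 34 without het line 2, 7 without het line 3, and 1 without wt line 3 or without het line 1, and it was 0 in the fit of 24 libraries.

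Of 45 imprinted genes 8 were higher and 0 lower with a median of 0.02 (-0.017 to 0.072 with a line left out), and in turn the lower count was 4, 0, 1, 0, 0 and 2, with 6 to 8 higher. Grb10, a growth factor receptor adaptor, had 341, 310 and 307 CPM in wt and 424, 441 and 384 CPM in het, at 0.38 (SE 0.084, unadjusted p = 0.000767), every het line above every wt line, and both DESeq2 and the exact test called it. Peg12 had 5.28, 5.10 and 4.52 CPM in wt and 11.3, 7.01 and 9.50 CPM in het, at 0.90 (SE 0.23). The counts are summed over both parental alleles. In a zinc finger gene region towards the distal end of chromosome 4, 2 of 21 genes were higher and 0 lower with a median of 0.26, or 0.10 to 0.48 with a line left out (Zfp990 at 0.42, SE 0.17, and Zfp979 at 0.59, SE 0.24), and the groups overlapped for every one of them. In turn 0, 0, 9, 3, 0 and 1 of these were higher. Of 24 SMC proteins and partners, 1 was higher (Ncapd2, a condensin subunit, 0.26) and 3 lower, Smchd1 first, with Smc5 at -0.24 and Smc1a at -0.21 (3, 1, 3, 4, 3 and 1 lower in turn).

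Lists of derivatives that NMPs can form were also read. Paraxial mesoderm genes had 0 higher and 2 lower of 15 (Cited1 and Pcdh19, -0.80, SE 0.22) with a median of -0.05 (-0.39 to 0.22 with a line left out, 5 lower without het line 1), and the master regulator Tbx6 was at -0.51 (SE 0.49, unadjusted p = 0.327). Neural genes had 4 higher (Nes, Sox1, Tubb3 and Elavl3) and 0 lower of 13 with a median of 0.13. In turn 4, 1, 1, 3, 2 and 1 were higher, and the sign of the median was not kept (-0.0042 to 0.27). Nes (nestin, an intermediate filament of neural progenitors) had 71.3, 49.8 and 51.2 CPM in wt and 139, 62.3 and 95.6 CPM in het, at 0.78 (SE 0.24), with het line 2 within the wt range. Het line 1 was the highest line, and over all alternatives the fold change of Nes ran from 0.457 to 1.03. Pax6 was at most 1.83 CPM in any line, at 0.11 (SE 0.74). Lateral mesoderm and heart genes had 2 higher (Bmp4, 0.82, SE 0.26, and Tbx20, at most 1.22 CPM in any line) and 1 lower (Gata4, also on the endoderm list) of 6. Their median was 0.57, or 0.33 to 0.73 with a line left out and 0.095 to 0.62 under the other alternatives. In turn 2, 1, 3, 2, 1 and 0 were higher.

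Trophoblast and placenta genes had 2 higher (the keratins Krt7 and Krt8) and 4 lower (Tpbpa, Psg29, Bc1 and Rhox6) of 15 with a median of -0.20 (-0.29 to -0.085 with a line left out, 3, 3, 5, 2, 3 and 2 lower in turn and 2, 3, 1, 3, 2 and 0 higher). Bc1 is on the list although it is a noncoding RNA known from neurons and no marker of trophoblast, so 3 of the 4 lower members are placental genes. It had 93.3 CPM in wt line 2 and 22.1 and 28.8 CPM in the other wt lines and 21.0 to 25.1 CPM in het, which overlapped. Tpbpa, a spongiotrophoblast gene, had 51.0, 88.2 and 41.4 CPM in wt and 25.1, 36.0 and 33.7 CPM in het, at -0.93 (SE 0.24). DESeq2 and the exact test called Tpbpa, and over all alternatives it ran from -1.14 to -0.557. Psg29 had 37.8, 68.4 and 26.7 CPM in wt and 16.0, 26.4 and 22.5 CPM in het, at -1.03 (SE 0.29). Over all alternatives Psg29 ran from -1.3 to -0.584. For both genes wt line 2 was the highest line. The defining trophoblast gene Gata3 was at 2.03 to 2.97 CPM in all lines, at 0.11 (SE 0.32). Blood and endothelium genes had 0 higher and 2 lower of 7 (Kdr and Cdh5) with a median of -0.27 (-0.40 to -0.038 with a line left out, 0, 0, 3, 0, 2 and 0 lower in turn). The share of counts from mitochondrially encoded genes was 0.448% to 0.63%, and of 12 such genes 0 were higher and 0 lower (3 lower without wt line 1).

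Of 18 p53 targets 4 were higher and 0 lower with a median of 0.09, and 2 to 5 were higher when a line was left out (2 without wt line 2, wt line 3 or het line 3). Trp53inp1, which promotes p53-dependent cell death and autophagy, had 151, 168 and 167 CPM in wt and 209, 211 and 232 CPM in het, at 0.42 (SE 0.083, unadjusted p = 0.000322), and was called by DESeq2 and the exact test. Adhesion and EMT genes had 4 higher and 0 lower of 18 with a median of 0.08 (0.026 to 0.24 with a line left out, 7, 1, 2, 3, 2 and 1 higher in turn), among them Cdh1 (E-cadherin) with 375, 203 and 273 CPM in wt and 387, 433 and 377 CPM in het, at 0.49 (SE 0.17). For Cdh1, as for the Nodal genes, wt line 2 was the lowest line. Over all alternatives the fold change of Cdh1 ran from 0.291 to 0.745.

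For the remaining lists, counts higher and lower were 1 and 1 of 33 for Polycomb, 2 and 1 of 25 for DNA methylation and heterochromatin (Dnmt3a and Dnmt3b higher, Tet3 lower), 1 and 0 of 18 for the integrated stress response, and 3 and 1 of 19 for G1 cyclins and inhibitors. Cholesterol synthesis had 0 and 2 of 24, and glycolysis (25 tested), the germline (15) and two-cell-like genes (11) had 0 and 0. These small counts moved with the lines, since in turn the lower count of Polycomb was 6, 0, 0, 0, 1 and 0, the higher count of G1 cyclins and inhibitors 2, 1, 0, 1, 1 and 1 and that of the stress response 3, 0, 1, 3, 0 and 1. The higher count of the DNA methylation list was 3, 0, 2, 3, 0 and 2 in turn, and the lower count of cholesterol synthesis 3, 1, 0, 0, 2 and 1. For these 5 lists the counts in the other direction were 0 to 4 in such fits. Glycolysis had 1, 0, 1, 2, 0 and 0 higher in turn and 3, 0, 0, 0, 2 and 0 lower, the germline list 2, 0, 1, 2, 0 and 0 higher, and the two-cell-like list 2 higher without wt line 1. Their medians lay between -0.02 and 0.08 (-0.087 to 0.15 with a line left out) except for 0.18 in the germline list (-0.31 to 0.36 with a line left out) and 0.36 in the two-cell-like list (0.0012 to 0.52).

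The day 3 values were then set beside those of the earlier days in the same lines. Since the lines are the same, these are repeated measurements of 6 lines. Cited1 was lower in het on each day, at -0.99 (SE 0.27) on day 0, -0.99 (SE 0.22) on day 2, -0.91 (SE 0.24) on day 2.5 and -0.83 on day 3. Spink1 was also lower on each day, at -0.67 (SE 0.29), -1.16 (SE 0.21) and -1.10 (SE 0.38) before day 3.

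Tagln, by contrast, lay at 0.05 (SE 0.18) on day 0 and 0.12 (SE 0.19) on day 2, then at 0.78 (SE 0.24) on day 2.5 and 1.19 on day 3. Cnn1 lay at 0.11 (SE 0.28), 0.02 (SE 0.21) and 0.46 (SE 0.26) before 1.24 on day 3. The median of the contractile list was 0.0009 on day 0, 0.03 on day 2, 0.24 on day 2.5 and 0.35 on day 3. The endoderm list was at -0.75, -1.03, -0.47 and -0.67 on the same days, so its median was negative in the mESCs too.

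Whether het against wt differed between day 3 and another day was tested for every gene as an interaction of genotype and day. With edgeR's quasi-likelihood test, 0 of 16486 genes passed against day 2.5 (635 at an unadjusted p under 0.05, 3.85%), 0 of 16552 against day 2 (720, 4.35%) and 0 of 16549 against day 0 (1455, 8.79%). With the line as a block, which uses the fact that each line was sampled on every day, 0 genes passed against day 2.5 (949 at an unadjusted p under 0.05, 5.76%), 0 against day 2 (844, 5.1%) and 4 against day 0 (0.0242%, with 1727 or 10.4% at an unadjusted p under 0.05). The latter were Lefty2, Cldn4, Malat1 and Igsf8. For Tagln the difference against day 0 was 1.10 (SE 0.17), with an adjusted p of 0.05005 with the block and 0.438 without it in edgeR's quasi-likelihood test. No difference between days was tested for a list as a whole.

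**Figure D5:**
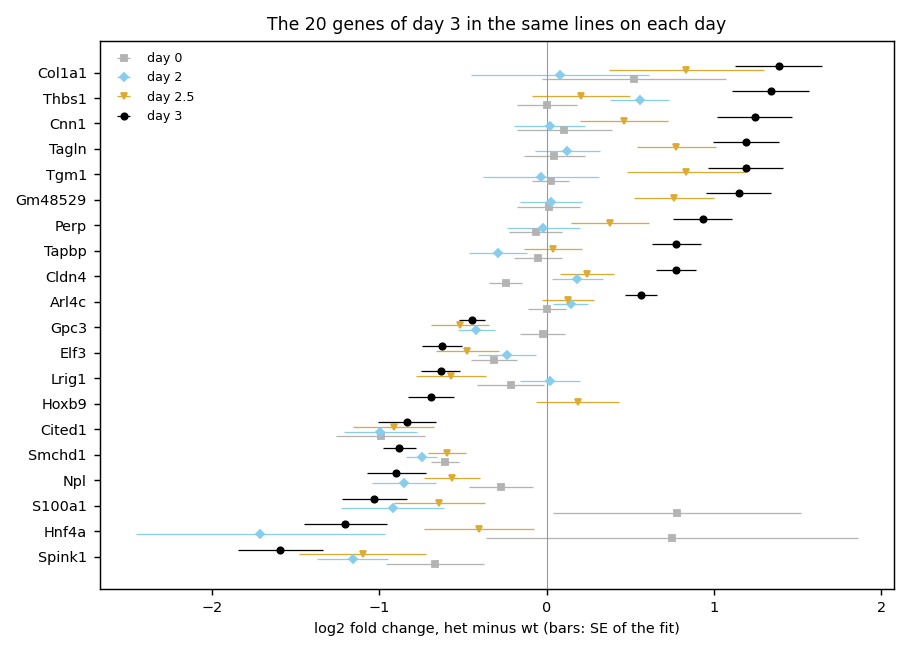
Log2 fold change of het minus wt for the 20 genes named at day 3, on day 0 (squares), day 2 (diamonds), day 2.5 (triangles) and day 3 (circles); bars are the SE of each day's fit, n = 3 lines per genotype. Smchd1, Cited1 and Spink1 are lower in het on all 4 days, whereas Tagln, Cnn1 and Tgm1 lie near 0 on day 0 and day 2.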

How the data were processed

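Polyadenylated RNA was sequenced as 75-bp single-end reads from TruSeq libraries, stranded or not, with the kit of each library not stated. Per the labels and methods, the authors trimmed reads with Trim Galore 0.4.4, mapped them to GRCm38.p6 with HISAT2 2.0.5 and counted them per gene in SeqMonk. They deposited raw read counts per gene, and separate tables of log2 RPKM for Hox genes and NMP factors, in which the authors divided by library size and gene length. The deposited table also held 8 pooled columns in which the authors averaged counts of a group (a signal), not used here.

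Day 3 libraries were grouped by the genotype in their labels. Genes were kept with filterByExpr, libraries scaled by TMM, and het compared with wt by edgeR 4.0.16 quasi-likelihood tests in R 4.3.3 with Benjamini-Hochberg adjustment (adjusted p under 0.05); the fitting script was tested on simulated data. DESeq2 1.42.0, edgeR's exact test, limma 3.58.1 voom, other scalings and filters, a fit of 24 libraries, a block by line number and leaving out each line were alternatives. With 1 library per line and day, the p-values rest on the spread between libraries. Differences between lines, between differentiations and between library preparations cannot be told apart in that spread. The members and lists were chosen with earlier results of these data known. The rule for named genes took Smchd1, the 20 genes described, 15 fixed genes, the 2 members of each list with the smallest p and genes that differed between days; other list members named were chosen after their values were seen. Hox genes outside the HoxB, HoxC and HoxD clusters, 1 of the 2 higher ones among them, entered the list counts and medians and are not reported singly here. Of 102 such genes all 102 had the coordinates of the GENCODE annotation, and 32 overlap exons of another gene. Library depth was 16041475 to 20818018 counts, which gives a floor of 3 counts (0.142 to 0.189 CPM); such floors cover counting error only.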

Additional observations from a re-analysis of the deposited data

Results flagged for a closer look

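Het against wt differed between day 3 and day 0 for 4 of 16549 genes in edgeR's quasi-likelihood test of the interaction with the line as a block. Lefty2, the inhibitor and target of Nodal, was higher in het on day 3 (1.23) and not on day 0 (-0.24), a difference of 1.47 on the log2 scale (SE 0.20, adjusted p = 0.0375 by that edgeR test). Cldn4, a tight junction claudin, went from -0.24 to 0.77, a difference of 0.998 (SE 0.14, adjusted p = 0.0375 by that edgeR test). Igsf8, an immunoglobulin superfamily surface protein, went from -0.54 to 0.49, a difference of 1.01 (SE 0.15, adjusted p = 0.0427 by that edgeR test). It had 31.6, 23.0 and 35.7 CPM in the wt lines and 40.3, 45.9 and 40.3 CPM in the het lines on day 3, without overlap.

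Malat1, a nuclear long noncoding RNA, went the other way, from 0.68 on day 0 to -0.46 on day 3, a difference of -1.22 (SE 0.18, adjusted p = 0.0375 by that edgeR test). On day 3 it had 271, 416 and 268 CPM in the wt lines and 211, 155 and 326 CPM in the het lines, which overlapped. On day 2 it lay at -0.19 (SE 0.39) and on day 2.5 at 0.85 (SE 0.35).

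The 4 calls rested on the lines. Without the block none of the 4 passed (lowest adjusted p of 0.168 in edgeR's test). With the block, 49 genes passed without wt line 1 (all 4 among them), 5 without wt line 2 (1 of the 4), 1 without wt line 3 (0 of the 4), 0 without het line 1, 8 without het line 2 (3 of the 4) and 0 without het line 3.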

How the results depend on the processing

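Smchd1 kept its direction under all alternatives but lost its call without wt replicate 2, wt replicate 3, het replicate 1 or het replicate 3 (fold change -0.981 to -0.829 when a line was left out). The count of 1 called gene moved to 274 of 22659 with no filter beyond 1 count, 116 with DESeq2's Wald test, 135 with edgeR's exact test, 15 in the fit of 24 libraries (13 higher, 2 lower) and 0 to 93 when a line was left out. With the line number as a replicate block it moved to 100 (25 higher, 75 lower). The deviations of wt and het lines with the same number correlated at 0.182, -0.0303 and 0.0232, and no label ties a number to a litter or batch, so the number was not taken as a pairing. Over days the number marks the same line by design. The deviations of the same line correlated at 0.0512 to 0.141 between day 3 and day 2 and at 0.0509 to 0.101 for day 0. For both days each of the 6 lines correlated best with itself among the lines of its genotype. For day 2.5 the range was -0.0787 to 0.36, and 3 of 6 lines did so. Deviations from a genotype mean cancel out within the genotype, so this outcome was favoured in advance. For the differences between days, the count against day 0 was 4 with the replicate block (0 to 49 when a line was left out of that fit). Without the block it was 173 with no filter and 0 to 1 when a line was left out. Without the block the count against day 2 was 35 with no filter and 0 to 1 when a line was left out, and against day 2.5 it was 23 and 0 to 1.

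Genes whose small fold change changed sign were Cdx2 (-0.229 to 0.0791 over lines left out), Nkx1-2 (-0.266 to 0.388), Fgf8 (-0.259 to 0.25, -0.0194 with voom), Pax6 (-0.64 to 0.646, -0.507 with voom and -0.16 with the replicate block), Wnt3a (-0.538 to 0.299) and Hoxb1 (-0.336 to 0.378, -0.0188 with voom). Counts at an unadjusted p under 0.05 ran from 462 to 1260 higher and 409 to 1217 lower. Of the list medians 552 of the values recomputed stayed within the spread between lines and 32 moved; of the list counts 909 stayed within 1.5 times and 261 moved. The cause of these changes was not tested.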
